A study of Caenorhabditis elegans with 6 samples.

Results

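The lipases and lipid-binding proteins of *Caenorhabditis elegans* were compared between fed first-stage larvae (L1) and embryos of mixed ages. The 44 genes were those whose array annotation gave a symbol of the *lipl*, *lips*, *lbp*, *fil* or *far* class, with *atgl-1* added, out of 17118 genes tested. They comprised 8 *lipl*, 16 *lips*, 2 *fil*, 9 *lbp* and 8 *far* genes and *atgl-1*, and each was read by the probe set (the group of probes for 1 transcript) with the highest mean. Both stages were of the wild-type strain N2, with 3 Affymetrix arrays each and 8 µg of total RNA per labelling. Fed L1 larvae hatched over 24 h in M9 buffer without food at 20 °C and were then kept for 3 h in liquid culture with HB101 *Escherichia coli* at 10 mg/mL and 10 worms per µL. Mixed embryos were freed by bleaching from gravid adults that had grown on plates of the same bacterial strain, and their arrays were first made for another series. Titles of the embryo arrays give XX and the same string of digits for all 3 arrays. Stage, hatching without food, feeding and array set cannot be told apart, and the labels name no separate cultures, so p-values measure only the spread between these arrays, which may be technical. The L1 source label names embryos, whereas title, description and stage label name L1.

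Fat is stored as triglyceride in lipid droplets, mainly in the intestine and epidermis of the worm, and lipases cut it into fatty acids. ATGL-1, the adipose triglyceride lipase, acts at the droplet surface, and the LIPL proteins resemble the acid lipases of lysosomes. Fatty acids dissolve poorly in water and are moved by soluble carriers: the LBP proteins are of the fatty acid-binding protein family, and the FAR proteins are a fatty acid- and retinol-binding family of nematodes. Several of these lipases are known as genes of fasting, and an embryo lives on yolk that its mother supplied.

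Expression values were on the log2 scale of RMA, which corrects background, equalises arrays and summarises probes. Between arrays of the same stage Pearson's r over probe sets was 0.9925 to 0.9967, and a typical gene varied between them with an SD of 0.11 in fed L1 and 0.12 in embryos (medians). The arrays carry 32 probe sets against transcripts of bacteria and yeast, taken here as not added, and the brightest of these read 5.43. Signals no brighter than this, called the foreign control level, could not be told from background. These probe sets differed between stages by -0.10 to 0.26 (median 0.06, fed L1 minus embryo). Marker lists of tissues and of the embryo moved with the stage. Intestinal markers rose in 10 of 11 cases (mean level 10.49 to 10.54 on fed L1 arrays and 7.75 to 7.94 on embryo arrays), neuronal in 7 of 8 (9.84 to 9.90 in fed L1 and 7.82 to 7.91 in embryos) and body wall muscle in 6 of 7, with 1 fall (10.05 to 10.16 in fed L1 and 8.74 to 9.02 in embryos). Among 8 epidermal markers 1 rose and 4 fell (9.52 to 9.56 in fed L1 and 10.55 to 10.86 in embryos), and all 10 maternal and germline markers fell (5.99 to 6.02 in fed L1 and 9.59 to 9.97 in embryos). The only genes of these marker lists at the foreign control level on every array of a stage were *pgp-1* (intestine) and *rgef-1* (neurons) on the embryo arrays, and *dpy-7*, *rol-6* (epidermis), *mex-1*, *nos-2* (maternal) and *rgef-1* on the fed L1 arrays. Whole animals were measured, so fewer cells of a type and less RNA per cell cannot be told apart, and the part of tissue makeup in any result below was not tested.

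Of the 44 genes, 20 were higher and 11 lower in fed L1, and 13 did not pass limma at a Benjamini-Hochberg adjusted p under 0.05 over all genes. The passing share was 70.5%, against 64.4% of all genes tested, of which 33.2% were higher and 31.2% lower. The differences ran from -3.57 to 6.19 log2 units, with a median difference of 0.17 against 0.05 over all genes. Passing differences of at least 1 log2 unit (2-fold in signal) numbered 15 rises and 6 falls, against 17.0% and 17.5% of all genes. They include *lips-1*, *lips-16*, *fil-2* and *lipl-6*, so near the foreign control level that a 2-fold change in transcript is not established. For 34 genes each array of one stage read above each of the other, against 70.6% of all genes. On no array did 13 of the 44 genes exceed the foreign control level, which was also true of 32.0% of all genes. The calls include 3 of these 13 (*lipl-3*, *lips-8* and *lips-12*), against 1200 of the 5473 such genes over all. Among the 31 genes over that level on at least 1 array, 18 rose and 10 fell. Their passing share was 90.3%, against 84.4% of all genes over it. When each array was centred on its ribosomal protein genes, the all-gene median shifted by -0.38. That setting gave 16 rises and 20 falls among the 44 genes, and rises then made up 44.4% of their calls, against 64.5% before. Over all genes the share was 27.3%, against 51.6% before.

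**Figure D1:**
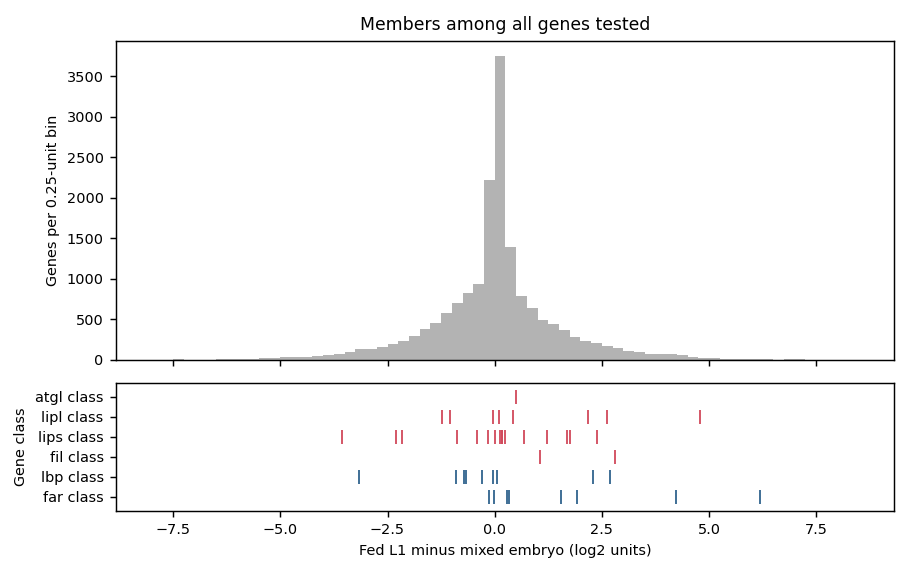
Distribution of the difference between fed L1 and mixed embryo (log2 units) over 17118 genes (grey bars, upper panel), with each of the 44 genes as a tick by gene class (lower panel). The 3 ticks above 4 log2 units are *lipl-5*, *far-8* and *far-7*, all at foreign control level in embryos, and the lowest ticks are *lips-3* at -3.57 and *lbp-1* at -3.17.

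The lipase gene of the lipid droplet rose by less than 2-fold. *atgl-1* had values of 9.91, 9.85 and 9.84 on the fed L1 arrays, against 9.35, 9.32 and 9.45 on the embryo arrays. The fed L1 arrays were all the higher ones, by 0.49 log2 units (SE 0.08, n = 3 per stage, limma adjusted p = 4.59e-04), a 1.4-fold difference. Its other probe sets gave 0.81 and 0.07, the last without passing, and the difference was 0.10 with no call after ribosomal protein centring.

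Acid lipase genes of the *lipl* class split into strong rises, moderate falls and members at background. In the class 4 of 8 genes rose and 2 fell, with a median of 0.27. The passing share of the class was 75.0%, against 64.4% of all genes tested. After ribosomal protein centring, however, 3 rose and 4 fell. The added falls were *lipl-4* and *lipl-8*, at foreign control level on all arrays. *lipl-5*, a lipase gene known to respond to fasting, had values of 10.20, 10.11 and 10.24 on the fed L1 arrays, against 5.43, 5.41 and 5.34 on the embryo arrays. Every fed L1 array was far above the embryo arrays, which lay at foreign control level. The difference of 4.80 (SE 0.09, limma adjusted p = 6.62e-11) stands for at least a 26.99-fold rise. Such bounds set the mean of the brighter stage against the foreign control level wherever all arrays of the other stage were at or under it. They hold for the deposited scaling only, and the difference of *lipl-5* was 4.41 after ribosomal protein centring.

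*lipl-2* had values of 8.43, 8.51 and 8.83 on the fed L1 arrays, against 5.60, 6.49 and 5.83 on the embryo arrays. The stages did not overlap, though the embryo arrays spread widely, with replicate B the highest, and the gene rose by 2.62 (SE 0.21, limma adjusted p = 9.66e-07), the widest error of the 44 genes. *lipl-1*, which encodes a lysosomal lipase induced by fasting, had values of 6.99, 7.05 and 6.99 on the fed L1 arrays, against 4.93, 4.75 and 4.79 on the embryo arrays. All embryo arrays were at foreign control level, and the rise of 2.18 (SE 0.09, limma adjusted p = 5.96e-09) was at least 2.98-fold. *lipl-7* ran the other way, with 8.24, 8.21 and 8.17 on the fed L1 arrays, against 9.40, 9.47 and 9.43 on the embryo arrays. Its replicates were close together in both stages, and it fell by 1.23 (SE 0.08, limma adjusted p = 2.66e-07).

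The remaining *lipl* genes were dim. *lipl-6* had 4.30, 4.44 and 4.36 on the fed L1 arrays, against 5.24, 5.43 and 5.56 on the embryo arrays, and it fell by 1.04 at the edge of the foreign control level. *lipl-3*, like *lipl-1* a fasting-induced lysosomal lipase, differed by 0.43 with a passed test (limma adjusted p = 0.0044), but at foreign control level in both stages, by a probe set designed to allow related sequences, and by 0.05 with no call after ribosomal protein centring. *lipl-4*, whose product releases lysosomal lipid signals that extend lifespan when overproduced, differed by -0.03 and *lipl-8* by 0.11. Neither passed, and both lay at foreign control level on all arrays.

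**Figure D2:**
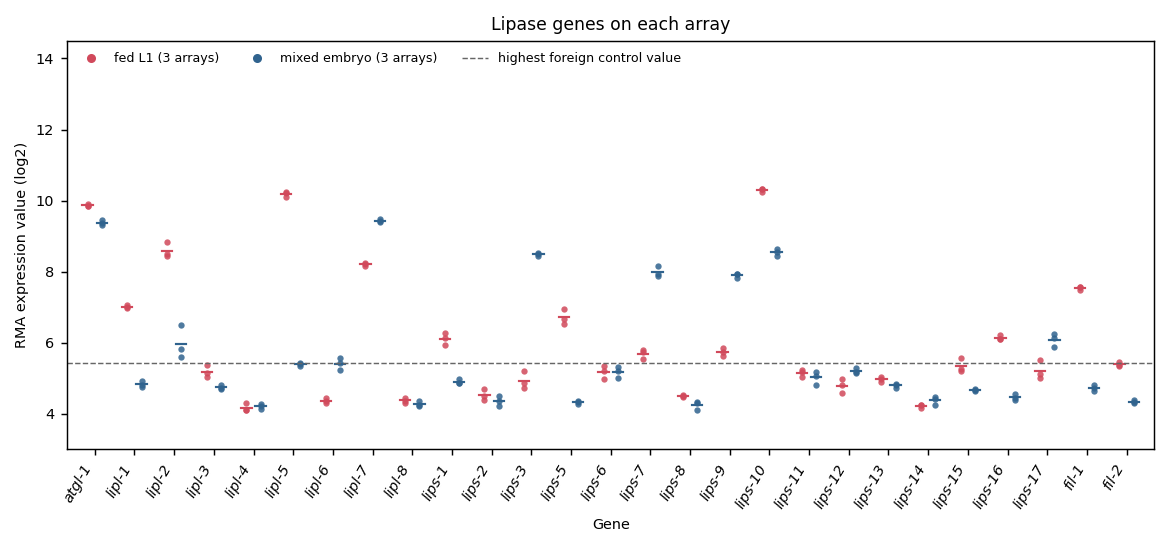
RMA expression values (log2) of the 27 lipase genes on each array, with fed L1 (red, left of each gene) and mixed embryo (blue, right), 3 arrays each. Points are arrays, short lines are means, and the dashed line is the foreign control level of 5.43, under which 10 of these genes lay on all arrays.

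The *lips* class, named for its likeness to lipases and with few members of known function, held both rises and falls. Rises were found in 6 of its 16 genes and falls in 5, the other 5 missing the threshold, at a median of 0.14. The passing share of the class was 68.8%, against 64.4% of all genes tested. After ribosomal protein centring 5 rose and 7 fell, the added falls being *lips-6* and *lips-14*, at foreign control level on all arrays. A large fall was in *lips-3*, with 4.71, 5.19 and 4.86 on the fed L1 arrays, against 8.53, 8.43 and 8.50 on the embryo arrays. The fed L1 arrays lay at foreign control level and the embryo arrays were tightly grouped well above it. *lips-3* fell by 3.57 (SE 0.12, limma adjusted p = 1.89e-09), at least 8.32-fold.

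A pair of further genes on chromosome II fell by similar amounts. *lips-7* had 5.79, 5.74 and 5.54 on the fed L1 arrays, against 7.89, 8.15 and 7.93 on the embryo arrays, and *lips-9* had 5.62, 5.84 and 5.73 on the fed L1 arrays, against 7.93, 7.83 and 7.92 on the embryo arrays. In both the fed L1 arrays were just above the foreign control level and apart from the embryo arrays. They fell by 2.30 (SE 0.11, limma adjusted p = 1.70e-08) for *lips-7* and by 2.17 (SE 0.09, limma adjusted p = 8.55e-09) for *lips-9*, whose probe set may match related sequences.

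The rises of the class came mostly from genes at background in embryos. *lips-5* had 6.95, 6.53 and 6.66 on the fed L1 arrays, against 4.27, 4.33 and 4.36 on the embryo arrays, and it rose by 2.39 (SE 0.11, limma adjusted p = 1.91e-08), at least 2.43-fold. *lips-10* was the exception, being well measured in both stages, with 10.23, 10.33 and 10.33 on the fed L1 arrays, against 8.64, 8.43 and 8.54 on the embryo arrays. Its stages did not overlap, it rose by 1.76 (SE 0.09, limma adjusted p = 4.00e-08), and its other probe set gave 1.54. *lips-16*, annotated as a pseudogene, had 6.10, 6.20 and 6.09 on the fed L1 arrays, against 4.37, 4.55 and 4.44 on the embryo arrays and rose by 1.68 (SE 0.09, limma adjusted p = 4.73e-08), at least 1.63-fold. *lips-1* had 6.13, 5.92 and 6.28 on the fed L1 arrays, against 4.86, 4.86 and 4.98 on the embryo arrays. Here the embryo arrays were at foreign control level and the fed L1 arrays not far above it, with a rise of 1.21 (SE 0.11, limma adjusted p = 2.43e-06), at least 1.6-fold.

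Smaller changes completed the class. *lips-17* fell by 0.87 and *lips-15* rose by 0.69, the second with a mean at foreign control level in both stages. *lips-12* fell by 0.40 and *lips-8* rose by 0.24, both at foreign control level on all arrays. The call of *lips-8* (limma adjusted p = 0.041) was lost without any 1 of fed L1 replicates 1, 2 and 3 (0.25, 0.23 and 0.24) and without embryo replicates B and C (0.26 and 0.17), and its difference was -0.14 after ribosomal protein centring. *lips-2*, *lips-6*, *lips-11*, *lips-13* and *lips-14*, the last annotated as a pseudogene, did not pass, with differences of -0.15 to 0.17 at foreign control level throughout.

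The genes named as fasting-induced lipases were both higher in fed L1 than in embryos. No fasted larvae were measured, so a response to fasting or feeding was not tested. *fil-1* had 7.48, 7.56 and 7.57 on the fed L1 arrays, against 4.65, 4.71 and 4.79 on the embryo arrays. The embryo arrays were at foreign control level and the fed L1 arrays close together above it, with a rise of 2.82 (SE 0.09, limma adjusted p = 8.46e-10), at least 4.3-fold. *fil-2* had 5.35, 5.45 and 5.36 on the fed L1 arrays, against 4.30, 4.38 and 4.34 on the embryo arrays, and it rose by 1.05 (SE 0.08, limma adjusted p = 1.16e-06) with all but 1 fed L1 array under the foreign control level, so that no fold is given.

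Carriers of the *lbp* class changed in opposite directions, in part between neighbouring genes. Rises were found in 2 of the 9 genes and falls in 4, the other 3 missing the threshold, at a median of -0.29. The passing share of the class was 66.7%, near the 64.4% of all genes tested. After ribosomal protein centring 7 fell, the added falls being *lbp-5*, *lbp-7* and *lbp-8*, the last at foreign control level on all arrays. *lbp-3*, *lbp-1* and *lbp-2* lie next to each other on the X chromosome in the WBcel235 annotation, with no other protein-coding gene between them, and their proteins are known as secreted members of the family. *lbp-1* had 8.98, 8.83 and 8.80 on the fed L1 arrays, against 12.10, 12.04 and 11.98 on the embryo arrays. Every embryo array was above every fed L1 array, and the gene fell by 3.17 (SE 0.09, limma adjusted p = 5.27e-10), 9.02-fold. *lbp-2*, its neighbour, had 9.36, 9.29 and 9.13 on the fed L1 arrays, against 7.03, 7.02 and 6.82 on the embryo arrays. Here the fed L1 arrays were the higher ones, with a rise of 2.30 (SE 0.10, limma adjusted p = 1.08e-08), 4.92-fold. *lbp-3*, whose product carries lipid from intestine to neurons, had 9.21, 9.46 and 9.48 on the fed L1 arrays, against 10.04, 10.14 and 10.14 on the embryo arrays. It fell by 0.72 (SE 0.10, limma adjusted p = 8.38e-05), without overlap of the stages.

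Another pair of neighbours, *lbp-6* and *lbp-5* on chromosome I with 1 protein-coding gene between them, also differed from each other. *lbp-6* had 11.71, 11.69 and 11.63 on the fed L1 arrays, against 8.82, 9.16 and 8.95 on the embryo arrays. The stages were well apart, and the rise of 2.70 (SE 0.10, limma adjusted p = 3.72e-09) was the largest of the class, 6.5-fold. *lbp-5*, whose product is known to act with the nuclear receptor NHR-49, had 8.53, 8.96 and 8.65 on the fed L1 arrays, against 8.42, 8.82 and 9.04 on the embryo arrays. These values overlapped, and the difference of -0.05 (SE 0.16) did not pass.

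The *lbp* genes of chromosome V were lower in fed L1 or did not pass. *lbp-4* had 8.07, 7.99 and 8.05 on the fed L1 arrays, against 9.20, 8.72 and 8.89 on the embryo arrays, and it fell by 0.90 (SE 0.12, limma adjusted p = 6.69e-05). *lbp-9* had 9.89, 10.28 and 9.96 on the fed L1 arrays, against 11.00, 10.53 and 10.59 on the embryo arrays, and it fell by 0.66 (SE 0.15, limma adjusted p = 0.0022). In neither did the stages overlap. *lbp-7* had 7.12, 7.42 and 6.97 on the fed L1 arrays, against 7.26, 7.59 and 7.51 on the embryo arrays, with overlap. Its difference of -0.29 did not pass (limma adjusted p = 0.0842), although it did without fed L1 replicate 2 (-0.41) or without embryo replicate A (-0.38). The gene also passed after centring on array medians (-0.40) and after ribosomal protein centring (-0.67). *lbp-8*, which carries a lipid signal of the lysosome to the nucleus, had 3.82, 3.79 and 3.90 on the fed L1 arrays, against 3.76, 3.82 and 3.77 on the embryo arrays. All 6 values were at foreign control level, by a probe set that allows related sequences, and the difference of 0.05 did not pass.

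Among *far* genes the changes that passed were all rises, 5 of 8 genes with a median of 0.94 over the class. The passing share of the class was 62.5%, near the 64.4% of all genes tested (33.2% higher and 31.2% lower). After ribosomal protein centring 4 rose and 2 fell, the falls being *far-4* and *far-5*, at foreign control level on all arrays. *far-7* had 10.93, 11.12 and 10.92 on the fed L1 arrays, against 4.53, 4.93 and 4.92 on the embryo arrays. The embryo arrays were at foreign control level and the fed L1 arrays far above it. Its rise of 6.19 (SE 0.12, limma adjusted p = 9.19e-11) was at least 47.1-fold. *far-8* had 9.19, 9.32 and 9.15 on the fed L1 arrays, against 5.04, 4.93 and 5.03 on the embryo arrays, the same arrangement, and rose by 4.22 (SE 0.09, limma adjusted p = 1.18e-10), at least 13.8-fold.

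*far-2* and *far-6* were above background in both stages. *far-2* had 9.59, 9.70 and 9.59 on the fed L1 arrays, against 7.55, 7.70 and 7.85 on the embryo arrays, a rise of 1.92 (SE 0.10, limma adjusted p = 4.04e-08), 3.79-fold. *far-6* had 7.51, 7.44 and 7.24 on the fed L1 arrays, against 5.92, 5.89 and 5.75 on the embryo arrays, a rise of 1.54 (SE 0.10, limma adjusted p = 2.22e-07), 2.92-fold. In both the stages were apart by many times the spread of replicates. *far-1*, the immediate neighbour of *far-2* on chromosome III, had 13.25, 13.23 and 13.29 on the fed L1 arrays, against 13.02, 12.98 and 12.91 on the embryo arrays. The stages did not overlap, but the difference of 0.28 (SE 0.08, limma adjusted p = 0.0121) lost its call after another quantile normalization (0.15) and after centring on array medians (0.17), and was -0.10 after ribosomal protein centring.

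The cluster of *far-5*, *far-3* and *far-4*, adjacent genes on chromosome V, gave no call. *far-3* had 8.107, 8.230 and 8.217 on the fed L1 arrays, against 7.513, 7.930 and 8.096 on the embryo arrays. The fed L1 arrays were all higher by a narrow margin, and the difference of 0.34 (SE 0.14) missed the threshold (limma adjusted p = 0.0557). It passed in 7 of the 15 other settings that tested it, such as without embryo replicate C (0.46), and was -0.05 after ribosomal protein centring. *far-4* had 4.34, 4.03 and 4.00 on the fed L1 arrays, against 4.15, 4.12 and 4.14 on the embryo arrays, and *far-5* had 4.78, 4.60 and 4.52 on the fed L1 arrays, against 4.68, 4.63 and 5.00 on the embryo arrays. Both overlapped between stages at foreign control level, with differences of -0.02 and -0.14. *far-1* and *far-3* were read by probe sets that may match related sequences.

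**Figure D3:**
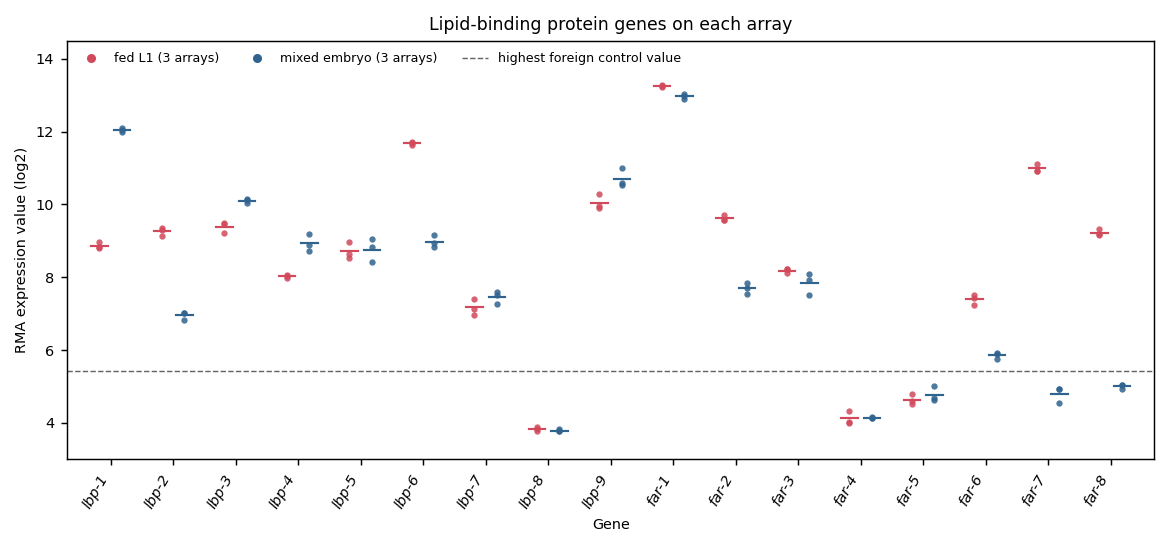
RMA expression values (log2) of the 9 *lbp* and 8 *far* genes on each array, with fed L1 (red, left of each gene) and mixed embryo (blue, right), 3 arrays each. Points are arrays, short lines are means, and the dashed line is the foreign control level of 5.43. *lbp-1* and *lbp-2* change in opposite directions, and *far-7* and *far-8* are above the line in fed L1 only.

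**Figure D4:**
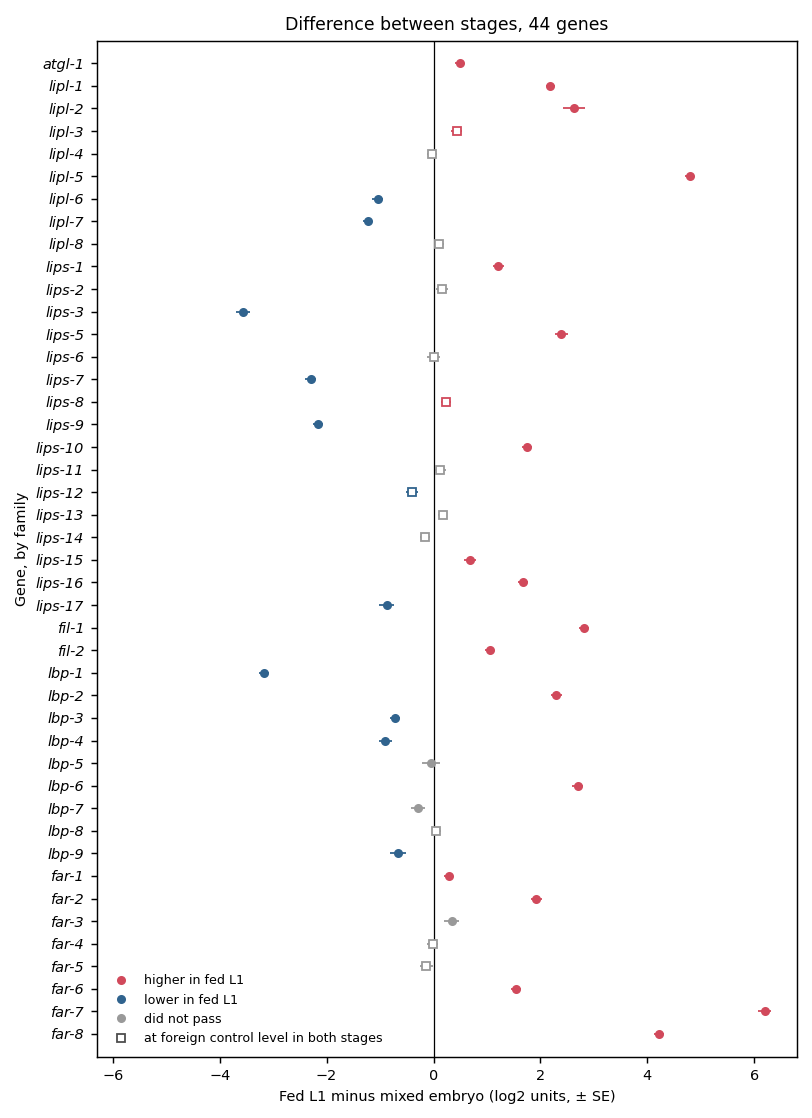
Difference between fed L1 and mixed embryo (log2 units, with limma's SE as bars, n = 3 per stage) for each of the 44 genes, ordered by class. Red points rose and blue points fell at an adjusted p under 0.05, grey points did not pass, and open squares mark the 13 genes at foreign control level on all arrays.

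Genes that act with these lipases were listed separately. Of 17 measured genes of lipid droplets and lipolysis (24 names listed), 9 rose and 7 fell, with a median of 0.28. The passing share was 94.1%, against 84.4% of all genes over the foreign control level on at least 1 array, as all 17 were. After ribosomal protein centring 6 rose and 8 fell. Probe sets that may match related sequences read 9 of the 17 genes, and without such probe sets 4 rose and 4 fell. *lid-1*, which encodes the partner that activates ATGL-1, fell by 1.61 (SE 0.14, limma adjusted p = 1.68e-06), with 6.39, 6.57 and 6.40 on the fed L1 arrays, against 8.15, 7.75 and 8.28 on the embryo arrays. Its relative *abhd-5.2* rose by 1.22 (SE 0.11, limma adjusted p = 2.21e-06), so that these related genes moved apart. *hosl-1*, the hormone-sensitive lipase gene, differed by -0.21 (limma adjusted p = 0.0443), a call lost when any 1 of the 6 arrays was left out (-0.20 to -0.22). Its size depended on the scaling, at -0.04 after another quantile normalization, with no call, and -0.59 after ribosomal protein centring. In fatty acid synthesis *pod-2*, the acetyl-CoA carboxylase gene, rose by 1.68 by a probe set that may match related sequences, whereas *fasn-1*, the fatty acid synthase gene, fell by 0.93. *lpin-1*, which encodes a phosphatidate phosphatase of triglyceride synthesis, rose by 1.22. The list also held *mdt-28*, once used as a name of the perilipin gene and now given by the annotation to a Mediator subunit gene. It fell by 1.43, also by a probe set that may match related sequences, and the counts and median of the list include it. *plin-1*, the perilipin gene, differed by -0.72 by another such probe set, and its other probe sets gave -0.22 and 0.32 without passing.

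Most listed regulators of lipolysis were higher in fed L1, 13 of 18 genes (19 listed), with 2 lower and a median of 0.91. Of the 11645 genes over the foreign control level on at least 1 array, as all 18 were, 4779 were higher and 5045 lower. The passing share of the list was 83.3%, against 84.4% of those genes. After ribosomal protein centring 10 were higher and 3 lower. Probe sets that may match related sequences read 7 of the 18 genes, among them *nhr-80* and *hlh-30*, and without such probe sets 9 were higher and 2 lower. *mxl-3* encodes the repressor of *lipl* genes under feeding, and *hlh-30* the TFEB relative that activates them under fasting. *mxl-3* had 9.50, 9.34 and 9.50 on the fed L1 arrays, against 7.24, 7.52 and 7.42 on the embryo arrays, and *hlh-30* had 10.83, 10.80 and 10.87 on the fed L1 arrays, against 9.66, 9.86 and 9.84 on the embryo arrays. Both were higher in fed L1 without overlap, *mxl-3* by 2.05 (SE 0.10, limma adjusted p = 2.69e-08) and *hlh-30* by 1.05 (SE 0.09, limma adjusted p = 2.14e-06), although the other *hlh-30* probe sets gave 0.87 and 0.22, the last without passing.

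Of the nuclear receptors that respond to fatty acid carriers, *nhr-80* rose by 3.06 (SE 0.11, limma adjusted p = 2.15e-09) and *nhr-49* differed by 0.12 (SE 0.12, limma adjusted p = 0.416) and did not pass, with -0.27 after ribosomal protein centring. The AMP-activated kinase gene *aak-1* rose by 2.18. The falls were in *pha-4*, a forkhead factor gene of the pharynx (-0.95), and *nhr-13* (-0.37), whose call was lost after another quantile normalization (-0.22).

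Lipid transport and uptake genes rose in 8 of 21 cases (23 listed) and fell in 5, with a median of 0.11, against 6 and 10 after ribosomal protein centring. The passing share was 61.9%, against 64.4% of all genes tested, and 4 of the 21 lay at foreign control level on all arrays. Probe sets that may match related sequences read 11 of the 21 genes, among them *scav-5* and *ncr-1*, and without such probe sets 4 rose and 4 fell. The CD36-like receptor gene *scav-5* rose by 4.12 (SE 0.13, limma adjusted p = 1.01e-09), its other probe set by 2.19, and *scav-4* by 2.06. *ncr-1*, which encodes a cholesterol transporter of the Niemann-Pick type, rose by 1.86. Among the falls were the acyl-CoA-binding protein genes *acbp-3* (-1.19) and *acbp-6* (-1.06) and *rme-2*, the gene of the oocyte's yolk receptor, which fell by 1.03 (SE 0.11, limma adjusted p = 9.28e-06). Of 5 vitellogenin genes, which encode yolk proteins made by adults, 3 (*vit-1*, *vit-2* and *vit-5*) lay at foreign control level on all arrays, and none passed limma (0 of 5 also at an unadjusted p under 0.05), with differences of -0.08 to 0.21.

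**Figure D5:**
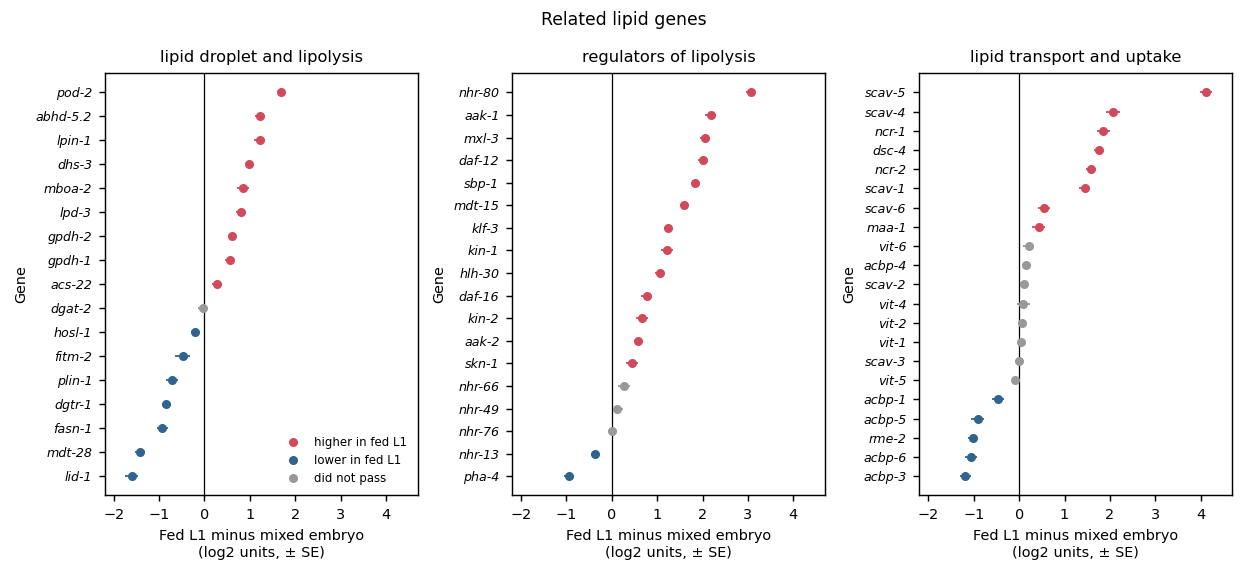
Difference between fed L1 and mixed embryo (log2 units, with limma's SE as bars, n = 3 per stage) for 17 lipid droplet and lipolysis genes, 18 regulators of lipolysis and 21 lipid transport and uptake genes. Red points rose, blue points fell and grey points did not pass. *nhr-80* and *scav-5* lie farthest to the right of their lists.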

How the data were processed

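Total RNA of 3 fed L1 and 3 mixed embryo samples was measured on 1-channel Affymetrix arrays. The deposited values are log2 expression values, 1 per probe set and array, made by the authors with RMA, per the submitters' processing notes. The RMA version and whether all arrays were normalized together are not given in the sources used here. Depth does not apply to arrays, and the number of arrays limits the precision.

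Of 22625 probe sets, 77 controls were left out. Symbols came from the platform annotation, and the highest-mean probe set of each of 17118 genes was kept. All 44 genes were found, 42 of them protein-coding in WBcel235 and 2 pseudogenes, and 5 rest on probe sets that may match related sequences. That annotation gave chromosomes and neighbours only. Groups came from sample titles. Fed L1 minus mixed embryo was estimated for all genes together by limma 3.58.1 under R 4.3.3 (lmFit and eBayes, 2-sided), with Benjamini-Hochberg adjustment over all of them and 0.05 as the threshold. SE is limma's moderated error. The fit was checked on simulated data, and no arrays were identical.

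The genes and lists were chosen with earlier results of these data known. Values per array are given for genes that passed with a difference of at least 1 and a mean over the foreign control level, and for *atgl-1* and all *fil*, *lbp* and *far* genes. The values of *lipl-6* were added after they were seen. From each related list the 3 largest changes each way that passed, and *hlh-30*, *mxl-3*, *nhr-49*, *nhr-80*, *hosl-1*, *lid-1* and *rme-2*, are named. *plin-1* was added with its values known. Lists were described by counts and medians without a list test. The fit was repeated under 16 other settings of normalization, centring, filters, variance model and probe set choice and without each array, 1 of them chosen after the data were seen. Protein and promoter sequences were not used here.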

Additional observations from a re-analysis of the deposited data

How the results depend on the processing

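After ribosomal protein centring 20 of the 44 genes were lower in fed L1, 3778 of all genes were higher and 10071 lower, and the median of the 44 genes was -0.22. It lowers every difference alike, and it gave opposite signs for 9 of the 44 genes: *far-1* (-0.10), *far-3* (-0.05), *lips-2* (-0.22), *lips-6* (-0.38), *lips-8* (-0.14), *lips-11* (-0.26), *lips-13* (-0.21), *lipl-8* (-0.27) and *lbp-8* (-0.33). All of these but *far-1* and *far-3* lay at foreign control level on all arrays. Keeping only genes from the 50th percentile of mean level upward, which left 22 of the 44 genes, gave 12 of them and 3274 of all genes as higher, at a median of 0.31 for those left. The median was 0.39 from the 25th percentile upward, and 0.69 for genes above foreign control level on at least 1 array, a setting chosen after the data were seen. Leaving out each array in turn gave 19 to 20 higher and 11 to 12 lower genes of the 44, medians of 0.14 to 0.22, and 5326 to 5522 higher and 5084 to 5365 lower genes overall. Under the other settings run, the counts of the 44 genes stayed at 18 to 21 higher and 10 to 13 lower, with 18 and 10 when shared-sequence probe sets were dropped, which left 39 of the 44 genes. No paired analysis was possible because the stages share no replicate labels. For genes at foreign control level in 1 stage, signal over background limits the fold to a bound.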
